A study of Mus musculus with 51 samples.

Results

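Mice exposed to 2,5-dimethylpyrazine (2,5-DMP), a volatile of mouse urine, were compared with diluent-exposed mice for the odorant receptors (ORs) enriched by phosphorylated S6 ribosomal subunit capture (pS6-IP-Seq). The comparison held 6 of the 51 libraries of the series, chosen by their labels: 3 libraries with the odorant 25DMP and 3 control libraries whose odorant label names (E)-β-farnesene, 2,5-DMP and 100 μM MTMT together. All libraries came from the whole olfactory mucosa of C57BL/6J mice about 3 weeks old, littermates of mixed sex, exposed for 1 hr after 1 hr of habituation. The stimulus was 1% (v/v) 2,5-DMP in water per the legends of the study, since the labels give no dose. The labels do not name the diluent of the control mice, which also served 100 μM MTMT, an odorant dissolved in ethanol. The mice exposed to (E)-β-farnesene, at 100% and in water per the legends, were compared with the same controls. Their values are given beside those of 2,5-DMP further on. Values were reads on 1117 intact OR genes, and 1070 of these had at least 10 reads over the 6 libraries and were tested.

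ORs are seven-transmembrane proteins coupled to a G protein, and each mature olfactory sensory neuron (OSN) transcribes a single OR gene from a single allele. OR transcripts therefore tell which kind of OSN a read came from. When an odorant activates an OSN, ribosomal protein S6 becomes phosphorylated, and an antibody against phosphorylated S6 retrieves ribosomes and their mRNA from the active neurons. An OR transcript that takes a larger share of the reads after an odor thus marks OSNs that were more active, whereas in whole mucosa more neurons of a kind and more captured RNA per neuron cannot be told apart.

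In a test without pairing of libraries, exposure to 2,5-DMP raised the transcripts of 9 ORs past a Benjamini-Hochberg adjusted p of 0.05. It lowered 0 (edgeR quasi-likelihood test), and DESeq2 also called 0 lower. Of the 1070 ORs tested, 0.841% were called higher. The count of lower ORs depended on the lack of pairing. When the edgeR model also held a term for replicate number, 4 ORs were lower and 13 higher, these 9 included. Olfr740 and Olfr743 were among the 4 (adjusted p = 3.84e-06 and 0.000102 in that edgeR test). The 9 ORs fell into 4 families of related receptors, named after the older MOR nomenclature: Olfr693, Olfr694, Olfr698 and Olfr699 of MOR283, Olfr1012 and Olfr1013 of MOR213, Olfr502 and Olfr491 of MOR204, and Olfr376 of MOR135. Their log2 fold changes ran from 1.24 to 2.16. Together they took 0.982%, 0.933% and 0.858% of the OR reads in the 3 control libraries and 4.11%, 3.39% and 2.47% in the 3 libraries of 2,5-DMP. No control library reached the lowest of the odor libraries. As the 9 ORs were called from these same libraries, this separation follows in part from the choice and is a description only.

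Over all ORs tested, the called ORs included, 47 had an unadjusted p under 0.05, 25 higher and 22 lower. The 2,5-DMP libraries all lay above the control libraries for 67 ORs, or 6.26% of those tested, and all lay below for 30. The median log2 fold change over all tested ORs was 0.01. The 3 control libraries held 62538, 124921 and 123436 OR reads and the 3 odor libraries 93870, 114784 and 148900, with 1052 to 1083 ORs detected in each. Reads on other genes were not analysed here, so the purity of the captured RNA and other cell types of the mucosa could not be read from their markers.

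**Figure D1:**
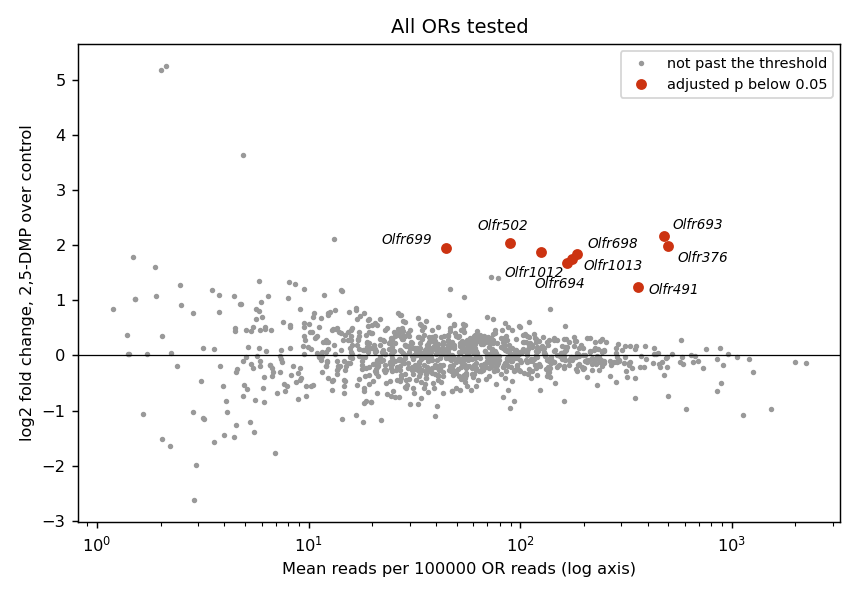
Each point is 1 of the 1070 ORs tested, with its mean normalised read count over the 6 libraries on a log axis and its log2 fold change after 2,5-DMP on the vertical axis. The 9 ORs past the threshold, in red, lie at log2 fold changes of 1.24 to 2.16, and the largest fold changes of all, at the left, belong to ORs with few reads.

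Coding sequences are shown for closely related receptors of which 1 passed the threshold and the other did not. For the 3 called ORs whose closest uncalled relative shares more than 88% of the protein, each is set beside that relative, and the 30 coding bases in which the pair differs at the most positions are given, 5′ to 3′ on the coding strand, from the RefSeq coding sequence (GRCm38.p6), with the differing bases in capitals. Olfr694 and Olfr704, both of MOR283, have 94.3% identical proteins and differ at 57 of 948 coding bases, and the stretch lies at chr7:106689598-106689627 on the minus strand for Olfr694 and at chr7:106865084-106865113 on the plus strand for Olfr704. Olfr376 and Olfr20, both of MOR135, have 90.3% identical proteins and differ at 58 coding bases, with the stretch at chr11:73375648-73375677 and chr11:73354643-73354672, both on the plus strand. Olfr1013 and Olfr1014, both of MOR213, have 88.9% identical proteins and differ at 92 coding bases, with the stretch at chr2:85769857-85769886 and chr2:85776640-85776669, both on the plus strand.
Olfr694: tacTttttagcCAtAacCagcaatggactG
Olfr704: tacCttttagcTTtGacAagcaatggactA
Olfr376: atgaagggGgcCCtAATTagTgttCtttgC
Olfr20: atgaagggAgcATtGGCCagAgttAtttgT
Olfr1013: GaTcctgtGatAcagAAggtCctgTttgCA
Olfr1014: AaCcctgtCatGcagCTggtTctgCttgTT

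The 4 called receptors of MOR283 lie side by side on chromosome 7 with other members of the family. Olfr693 (ENSMUSG00000051680; chr7:106675005-106680584, minus strand, GRCm38) had the lowest p of all ORs. Its normalised read count, in reads per 100000 OR reads of the library, was 189, 175 and 151 in control replicates 1 to 3 and 881, 767 and 693 in 2,5-DMP replicates 1 to 3. The groups were far apart, and the fold change was 4.47 (95% interval 3.17 to 6.30; log2 scale, 2.16 with a standard error, SE, of 0.25; adjusted p = 4.26e-05). Olfr698 (chr7:106749889-106755397, minus strand) measured 86.3, 60.04 and 92.4 in the controls and 353, 263 and 255 after 2,5-DMP. It rose 3.59-fold (2.53 to 5.09; adjusted p = 0.000208), again without overlap of the groups.

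Olfr694 (chr7:106684980-106691814, minus strand), the neighbour of Olfr693, measured 68.8, 80.9 and 85.1 in the controls and 380, 196 and 184 after 2,5-DMP. Replicate 1 stood well above the other two, and the fold change was 3.19 (2.15 to 4.74; adjusted p = 0.00182). Of its 50-base stretches, 3.78% also occur in other ORs, most of them in Olfr704, and a processed pseudogene on the opposite strand overlaps its gene by 196 bp. Olfr699 (chr7:106787963-106793198, minus strand) had few reads in the controls, at 12.8, 27.2 and 12.96, and 86.3, 73.2 and 56.4 after 2,5-DMP. Its rise was 3.88-fold (2.42 to 6.21; adjusted p = 0.00212), from 8 to 34 reads per control library to 81 to 84 reads per odor library.

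The remaining MOR283 members were measured beside these. Of the 12 members tested, 4 passed the threshold, against 0.841% of all ORs. A log2 fold change above 0 was found for 11, or 91.7%, against 50.7% of all ORs. The median was 0.56, against 0.01 over all ORs. The family was taken up because of its called ORs, which these values include, so they are descriptions only. Olfr697, between Olfr694 and Olfr698, was at 1.20 on the log2 scale (adjusted p = 0.248), with 52.2, 90.6 and 51.7 after 2,5-DMP against 41.6, 15.2 and 28.4 in the controls. Olfr704 was at 0.55 (SE 0.28, adjusted p = 0.991), with 57.8 to 75.6 after 2,5-DMP and 33.6 to 52.7 in the controls. Olfr695, which lies between Olfr694 and Olfr697 and whose protein is 89.2% identical to that of Olfr694, was at -0.10 (SE 0.23). The log2 ratio of Olfr694 to Olfr704 within a library was 0.80 ± 0.15 (SD, n = 3) in the controls and 1.79 ± 0.40 (SD, n = 3) after 2,5-DMP. The groups did not overlap (p = 0.1 by a two-sided exact permutation test, the smallest p that 3 libraries against 3 can give). Each ratio here and below sets a called OR against its closest uncalled relative, chosen from these same libraries. A rise follows in part from that choice, so the ratios are descriptions and not separate support.

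The called receptors of MOR213 were Olfr1012 (chr2:85757353-85762766, minus strand) and Olfr1013 (chr2:85767098-85774649, plus strand), neighbours with 76.8% identical proteins. Olfr1012 measured 65.6, 44.8 and 48.6 in the controls and 174, 202 and 218 after 2,5-DMP. Its rise was 3.69-fold (2.63 to 5.18; adjusted p = 0.000148), with the odor libraries close together. Olfr1013 measured 95.9, 56.8 and 86.7 in the controls and 350, 265 and 201 after 2,5-DMP, a 3.38-fold rise (2.31 to 4.94; adjusted p = 0.000826). Its gene model overlaps that of Olfr1014 on the same strand by 1937 bp, and 4.56% of its stretches of 50 bases also occur in Olfr1014, so that reads of these genes can be split between them and their separate values are uncertain.

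Olfr1014 measured 43.2, 44.8 and 39.7 in the controls and 182, 94.1 and 65.1 after 2,5-DMP, which is 1.40 on the log2 scale (SE 0.34; adjusted p = 0.0589). All 3 odor libraries were above the controls, with replicate 1 far above the others, and Olfr1014 passed the threshold in 6 of the 8 alternative analyses that kept all libraries. The log2 ratio of Olfr1013 to Olfr1014 within a library was 0.81 ± 0.43 (SD, n = 3) in the controls and 1.31 ± 0.34 (SD, n = 3) after 2,5-DMP, with overlap of the groups (exact permutation test, p = 0.3), and that of Olfr1012 to Olfr1014 also overlapped (exact p = 0.4). The next member along the chromosome, Olfr1015, was at 0.20 (SE 0.26), and Olfr1016 beyond it was at 0.77 (SE 0.35). All 6 members of MOR213 tested had a log2 fold change above 0, against 50.7% of all ORs. Their median was 1.09, against 0.01 over all ORs. The family was taken up because of its called ORs, which these values include. Its uncalled members lay between 0.20 and 1.40, and none passed the threshold.

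The called receptors of MOR204, a larger family on chromosome 7, were Olfr502 and Olfr491, whose proteins are 67.5% identical. Olfr502 (chr7:108520825-108525065, minus strand) measured 20.8, 31.2 and 49.4 in the controls and 201, 129 and 107 after 2,5-DMP. The rise was 4.13-fold (2.66 to 6.41; adjusted p = 0.000826), and the control library with the fewest reads of it held 13. Olfr491 (chr7:108313451-108318827, plus strand) measured 206, 255 and 171 in the controls and 582, 609 and 338 after 2,5-DMP. Its rise of 2.37-fold (1.65 to 3.41; adjusted p = 0.0182) was the smallest of the called ORs, and it was not past the threshold without 2,5-DMP replicate 1, 2,5-DMP replicate 2 or control replicate 3, with an adjusted p of up to 0.193.

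Of the 31 members of MOR204 tested, 2 passed, and the family median of 0.07 was close to that of all ORs. Olfr478, whose protein is 86.3% identical to that of Olfr502, came next, with 22.4, 46.4 and 46.2 in the controls and 154, 107 and 60.4 after 2,5-DMP. It was at 1.42 on the log2 scale (SE 0.34, adjusted p = 0.0540), its 3 odor libraries were all above the controls, and it passed in 7 of those 8 alternative analyses. The log2 ratio of Olfr502 to Olfr478 within a library was higher after 2,5-DMP by 0.63 without overlap (exact permutation test, p = 0.1). As this pair was chosen from the same libraries, the ratio is a description only.

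Olfr376 (chr11:73371246-73377836, plus strand) was the called receptor of MOR135. It measured 237, 203 and 161 in the controls and 1106, 889 and 416 after 2,5-DMP. The third odor library held less than the others and still lay above every control, and the rise was 3.95-fold (2.54 to 6.15; adjusted p = 0.000995). Its close relative Olfr20 measured 57.6, 56.0 and 55.1 in the controls and 51.1, 47.0 and 54.4 after 2,5-DMP, or -0.17 on the log2 scale (SE 0.27). The log2 ratio of Olfr376 to Olfr20 was 1.73 ± 0.24 (SD, n = 3) in the controls and 3.75 ± 0.80 (SD, n = 3) after 2,5-DMP, without overlap (exact permutation test, p = 0.1). This pair, too, was chosen from the same libraries, and its ratio is a description only. Of the 50-base stretches of Olfr376, 7.79% also occur in other ORs, most of them in Olfr20. The MOR135 median over 17 members was 0.01.

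**Figure D2:**
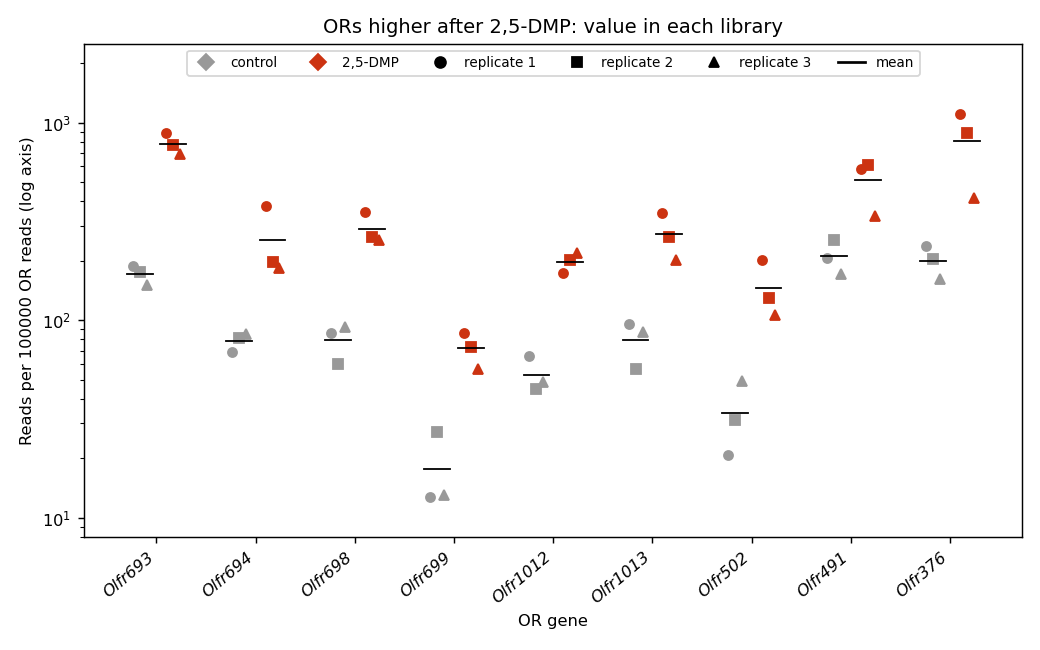
Reads per 100000 OR reads of the 9 ORs past the threshold, on a log axis, with a point for each of 3 control and 3 2,5-DMP libraries, the shape giving the replicate number and the line the mean. The odor libraries of each OR lie above all of its controls, and replicate 3 is the lowest odor library for 8 of the 9.

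Within the odor group, the libraries differed in a common way. Replicate 1 held the highest value of 7 of the 9 ORs, and replicate 3 the lowest value of 8 of the 9. Olfr1012 went the other way, with replicate 1 lowest and replicate 3 highest. The spread was widest for Olfr376 and Olfr694 and narrow for Olfr693 and Olfr1012. The share of reads on all 9 ORs followed the same order, at 4.11%, 3.39% and 2.47%.

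The position of the called ORs was next set against that of their neighbours. The called ORs themselves were left out of the list of neighbours. Among them, Olfr693, Olfr694, Olfr698, Olfr699, Olfr1012 and Olfr1013 each lay within 100 kb of another called OR. Within 100 kb of a called OR lay 39 OR genes that were not called, of which 37 were tested. Their median log2 fold change was 0.25 against 0.01 over all ORs, and 67.6% of them were above 0, against 50.7% of all ORs. For 5 of the 37, or 13.5%, the odor libraries were all above the controls, against 6.26% of all ORs. These were Olfr378, Olfr697, Olfr704, Olfr1014 and Olfr1016, all members of families with a called OR. The called genes were thus interleaved with genes that did not pass, as with Olfr695 between Olfr694 and Olfr698.

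**Figure D3:**
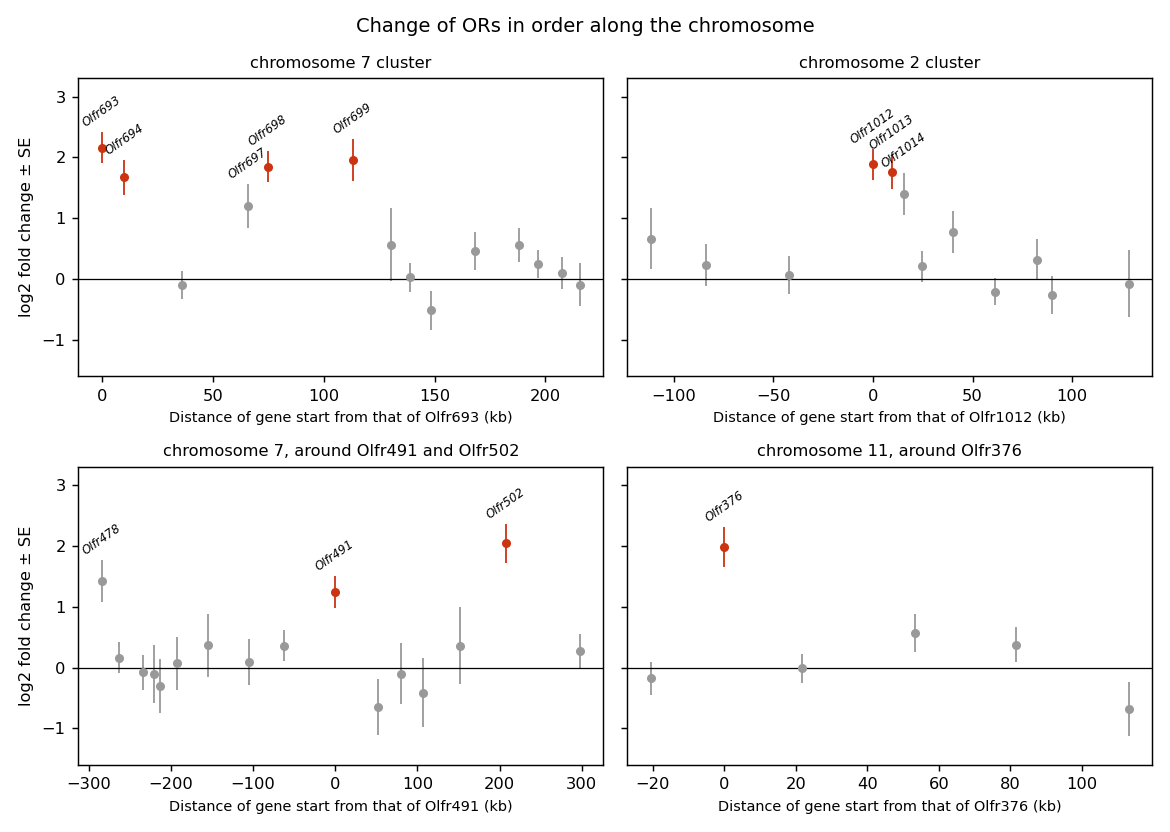
log2 fold change after 2,5-DMP, with its SE as a bar, of ORs in the order of their gene starts, as distance in kb from the start of a called OR. ORs past the threshold are red and ORs with an SE above 0.7 are not drawn; Olfr695 at -0.10 lies among called members of the same family.

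Similarity of the protein was compared in the same way. The 9 called proteins shared 35.6% to 88.6% of their residues over 36 pairs, and the closest pair was Olfr694 and Olfr698. The 3 most similar proteins of each called OR were listed and the called ORs then left out, among them Olfr694 and Olfr698, the closest to Olfr693. This gave 15 uncalled ORs. Of these, 10, or 66.7%, had a log2 fold change above 0, against 50.7% of all ORs. For 6, or 40%, all odor libraries were above the controls, against 6.26% of all ORs. Olfr378, Olfr704, Olfr1014 and Olfr1016 among them were also counted with the neighbours, so position and similarity were not separate comparisons. Their median was 0.25. Among uncalled ORs with at least 80% identity to a called one, 25 were tested, with a median of 0.07 and a range from -0.68 to 1.42. The median was 0.09 among the 28 with 70% to 80% identity, 0.29 among the 13 with 60% to 70% and -0.01 among the 109 with 50% to 60%. It was 0.03 among the 703 with 40% to 50% and -0.12 among the 174 below 40%. All odor libraries lay above the controls for 5 of the 25, 2 of the 28 and 2 of the 13. The same held for 5 of the 109, 41 of the 703 and 3 of the 174. As the called ORs were left out of these ranges, a relation of the response with identity was not tested.

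**Figure D4:**
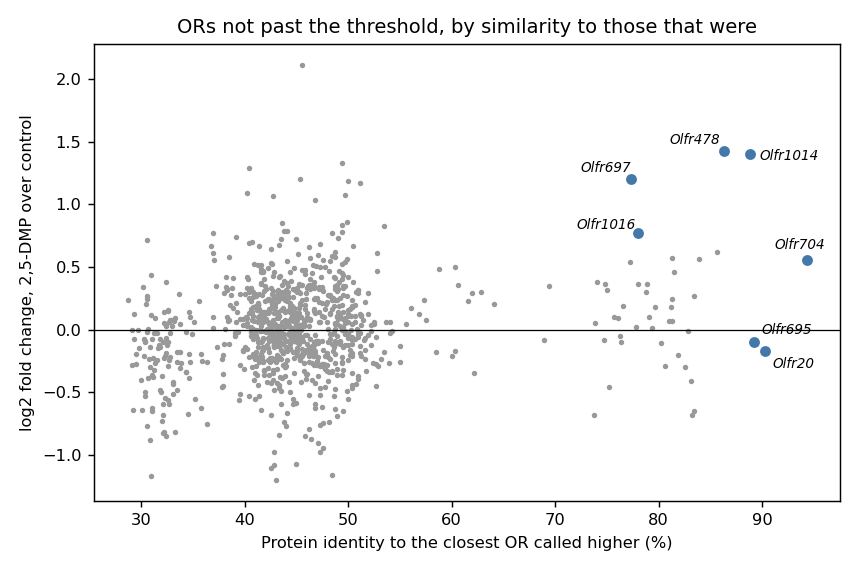
log2 fold change after 2,5-DMP of the ORs not past the threshold, against the protein identity to the closest OR called higher, in percent; ORs with an SE above 0.7 are not drawn. At the right, Olfr478 and Olfr1014 lie at 1.42 and 1.40, while Olfr695 and Olfr20, as similar to a called OR, lie at -0.10 and -0.17.

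Other ORs near the threshold had fewer reads or smaller changes. Olfr1129 measured 4.80, 3.20 and 6.48 in the controls and 14.9, 24.4 and 25.5 after 2,5-DMP, which gave 2.11 on the log2 scale (SE 0.55, adjusted p = 0.0832). These values rest on 3 to 8 reads per control library and 14 to 38 per odor library. Olfr32 was at 0.85 (SE 0.25, adjusted p = 0.230), with all odor libraries above the controls. Olfr993, with 0 reads in the 3 controls and 3, 7 and 5 after 2,5-DMP, and Olfr1436, with 0 in the controls and 4, 5 and 5, have too few reads for a fold change.

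On the lower side, the 5 ORs with the lowest unadjusted p did not pass the threshold in the test without pairing. Olfr601 measured 133, 109 and 115 in the controls and 58.6, 85.4 and 62.5 after 2,5-DMP, or -0.83 on the log2 scale (SE 0.25, adjusted p = 0.248). Olfr557 was at -0.82 (adjusted p = 0.258) and Olfr401 at -1.20 (adjusted p = 0.696), both with every odor library below the controls. Olfr740 and Olfr743, among the most abundant ORs of the controls, were at -1.08 and -0.98 (adjusted p = 0.341 and 0.641). Olfr740 measured 2298, 1181 and 1078 in the controls and 1053, 653 and 504 after 2,5-DMP, and Olfr743 3179, 1322 and 1552 against 1439, 1041 and 694. For both, replicate 1 was the highest library in each group. With the replicate number as a block, the edgeR test gave adjusted p = 3.84e-06 for Olfr740, 0.000102 for Olfr743 and 0.0427 for Olfr557. Olfr601 and Olfr401 did not pass with the block. The other abundant ORs, Olfr536, Olfr140 and Olfr1384, were at -0.14, -0.12 and -0.30.

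Olfr601 and Olfr557 belong to the class I stretch of chromosome 7, the symbols Olfr543 to Olfr692, where the genes of class I, the OR class that mammals share with fish, are grouped. None of its 111 tested members passed the threshold in the test without pairing. Their median log2 fold change was -0.20, with 78 below 0 and 33 above, and at an unadjusted p under 0.05 there were 9 lower and 0 higher. The stretch took 8.31%, 7.77% and 8.91% of the OR reads in the controls and 6.57%, 8.23% and 7.70% after 2,5-DMP, so that the groups overlapped (exact permutation test on log2 shares, p = 0.2). Against the same controls, the median of the stretch was -0.18 after (E)-β-farnesene and -0.11 after 100 μM MTMT.

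The ORs that the study follows most closely, Olfr910, Olfr912, Olfr1295, Olfr1437 and Olfr235, did not pass the threshold. Their log2 fold changes ran from -0.33 for Olfr912 to 0.52 for Olfr1295, with SEs of 0.25 to 0.32. For Olfr1295 alone, every odor library lay above the controls, at 94.7 to 158 against 76.0 to 83.1 (edgeR quasi-likelihood test, adjusted p = 0.991). The same separation held for 6.26% of all ORs.

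To see which changes separated 2,5-DMP from other odors, the odor libraries were compared directly with each other, without the shared controls in the contrast. The fit held the 12 libraries of the experiment and 1085 ORs. Doses differed between these odors, with 2,5-DMP at 1% and (E)-β-farnesene at 100% per the legends. Relative to (E)-β-farnesene, a terpene of male mouse scent, 13 ORs were higher after 2,5-DMP, or 1.2% of those tested, and 21 were lower. Relative to 100 μM MTMT, a thiol of male mouse urine, 11 were higher, or 1.01%, and 7 were lower. The 9 called ORs were higher in both contrasts. They had been called from the same 2,5-DMP libraries, so this follows in part from that choice and is not separate support. Without 2,5-DMP replicate 1 the count against (E)-β-farnesene was 7.

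Olfr693 measured 140 to 210 after (E)-β-farnesene and 120 to 182 after 100 μM MTMT, against 693 to 881 after 2,5-DMP, with log2 differences of 2.11 and 2.44 (SEs 0.24 and 0.25; adjusted p = 6.95e-07 and 1.87e-07). Against the shared controls, 7 of the 9 ORs lay between -0.39 and 0.18 on the log2 scale after (E)-β-farnesene, and Olfr376 was at 0.55. Olfr1012 separated least from (E)-β-farnesene, which gave 92.8 to 95.4 against 174 to 218, a log2 difference of 0.98 (SE 0.26, adjusted p = 0.0270). Against the controls, Olfr1012 was at 0.89 after (E)-β-farnesene (adjusted p = 0.153), with every odor library above the controls. The ORs beyond the 9 that were higher than after (E)-β-farnesene were Olfr478, Olfr32, Olfr1014 and Olfr697, and those higher than after 100 μM MTMT were Olfr32 and Olfr697. Olfr32 was higher by 1.05 and 1.09 (adjusted p = 0.00639 and 0.00687).

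The 9 ORs were also followed over the other exposures of the series, each against its own controls. After 2-sec-butyl-4,5-dihydrothiazole (SBT) given undiluted, 112 of 1050 ORs were higher, or 10.7%, and 4 of the 9 were among them, which is 4 of the 112. Olfr376 had the largest of these changes, at 2.54 (adjusted p = 0.000141), with 1102 ± 193 reads per 100000 after SBT and 248 ± 81.6 in its controls (SD, n = 3). Olfr694 was at 2.12 (adjusted p = 0.00217), Olfr502 at 2.06 (0.00432) and Olfr1012 at 1.51 (0.0280). The remaining 5 ORs, among them Olfr693 and Olfr1013, lay between 0.39 and 0.75 without passing the threshold. Their SEs ran from 0.34 for Olfr491 to 0.70 for Olfr699. The SBT controls held only 44027, 57154 and 27301 OR reads, so the lack of a call does not show a lack of change.

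After 1% SBT, 9 of 1043 ORs were higher. Of the 9 ORs followed here, Olfr376 alone was among them, at 1.87 on the log2 scale (adjusted p = 0.0368). Olfr1012 was at 1.30 (adjusted p = 0.690) with every odor library above its controls. After 0.01% SBT, 10 mM MTMT, β-caryophyllene, CPD and DHB none of the 9 passed. Few or no ORs of any kind did. The counts were 5 of 1072 for 0.01% SBT and 6 of 1064 for DHB. They were 0 of 1054 for 10 mM MTMT, 0 of 1048 for β-caryophyllene and 0 of 1050 for CPD. The lack of calls therefore does not set the 9 apart from other ORs. Doses and solvents differed between these odors. Within MOR283, Olfr694 was thus called after both 2,5-DMP and undiluted SBT, and Olfr693, Olfr698 and Olfr699 after 2,5-DMP.

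**Figure D5:**
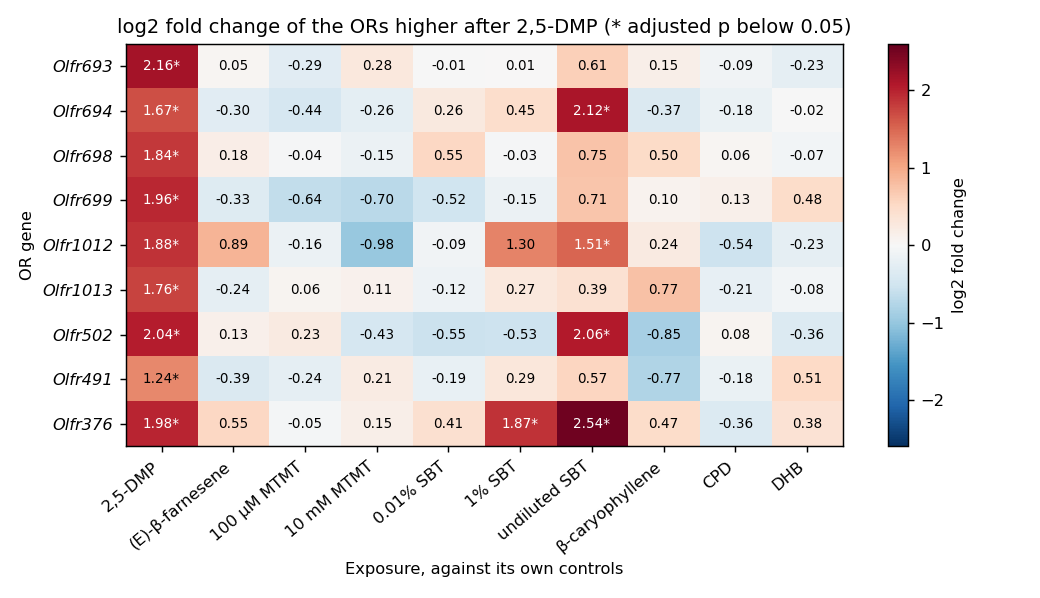
log2 fold change of the 9 ORs (rows) after each of 10 exposures, of 7 odorants, against its own controls (columns), some of which are shared, with an asterisk for an adjusted p below 0.05. Besides 2,5-DMP, undiluted SBT has 4 marked ORs and 1% SBT has 1, Olfr376.

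Whether the change after 2,5-DMP differed from that after undiluted SBT was tested as an interaction over the libraries of both experiments, which share no library. It passed the threshold for 78 of 1085 ORs, or 7.19%, with 2 larger after 2,5-DMP and 76 larger after SBT. Without TMM factors, which moved the median difference over all ORs from 0.08 to 0.49, the split was 20 and 59. Of the 9 called ORs, only Olfr693 passed, with a change larger by 1.54 on the log2 scale after 2,5-DMP (SE 0.46, adjusted p = 0.0435). For Olfr698, Olfr1013 and Olfr699 the differences were 1.12, 1.34 and 1.24 (SEs 0.48, 0.59 and 0.75; adjusted p = 0.199, 0.221 and 0.430), so a difference from SBT was not shown for these. For Olfr376, Olfr694 and Olfr502 they were -0.54, -0.44 and 0.02 (SEs 0.48, 0.49 and 0.50).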

How the data were processed

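The expected counts are RSEM estimates of reads per gene, which the authors made from STAR alignments to GRCm38.p6 (GENCODE M25, with 1 gene model deleted) and deposited as whole numbers for intact ORs only, unnormalized. Tool versions were not given in the sources used here. The deposited tables also hold the authors' fold changes and p-values, which were not used, and 6 count columns of the 2-heptanone table match no sample and were left out.

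For ORs with at least 10 reads, groups were tested in R 4.3.3 by edgeR 4.0.16 (TMM over ORs, glmQLFit, glmQLFTest, Benjamini-Hochberg over all ORs tested). The standard error is the log2 fold change over the root of F, and intervals are 1.96 standard errors. Normalised read counts are reads per 100000 OR reads without TMM. OR reads were 62538 to 148900 per library of 2,5-DMP and its controls, and PCR copies are not independent molecules. Log2 ratios used a pseudocount of 5, two-sided. Replicates are separate mice per the legends, and their counts differed beyond sampling noise (chi-squared per degree of freedom 5.38 to 9.87). Positions came from GENCODE M21, with 1117 ORs matched, and proteins from the translated RefSeq coding sequences of 1105 ORs, aligned with Biopython 1.88. MOR names, for 1083 ORs, are RefSeq synonyms. DESeq2 1.42.0 was an alternative. The edgeR steps were tested on simulated data.

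Named were all ORs past the threshold, the next 5 higher and lower, neighbours within 100 kb, the 3 closest proteins, the study's ORs and the 5 most abundant; Olfr993, Olfr1436 and Olfr1506 were added after their values were seen. The comparison, lists and rules were chosen with earlier results of these data known.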

Additional observations from a re-analysis of the deposited data

How the results depend on the processing

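The 9 ORs called higher were recounted under 14 alternatives, 6 of which left out a library. The 8 other alternatives gave 9 to 15 ORs, each time with all 9 among them. Olfr478 was added in 7 of these 8, Olfr1014 in 6 and Olfr1129 in 3. The 15 came from the likelihood ratio test of edgeR, which alone also added Olfr993, Olfr1436 and Olfr1506, with few reads. Leaving out a library gave 8 to 12. All but Olfr491 passed in every alternative, and Olfr491 was lost in 3. For the ORs lower, the count of 0 became 4 with the replicate block and 0 to 1 without a library, and was 0 by DESeq2 and the other tests. Equal replicate numbers were not taken as pairs, since the labels do not say that a number marks a litter. The study did use litter-matched mice. The deviations of same-numbered libraries correlated at 0.155, 0.0948 and 0.119, and the odor libraries each correlated best with the control of their own number. Pairing was thus not settled, and the count of lower ORs depends on it. With the replicate block, 13 ORs were higher, all 9 included, and Olfr740 (adjusted p = 3.84e-06), Olfr743 (0.000102), Olfr557 and Olfr285 were lower.

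The contrast with (E)-β-farnesene gave 7 to 13 ORs without a library, the 7 without 2,5-DMP replicate 1, and 13 with the replicate block. That with 100 μM MTMT gave 9 to 13 without a library and 13 with the block. The interaction with SBT gave 79 ORs without TMM factors, 61 of them shared; the difference was then 1.97 for Olfr693, the one of the 9 that passed, and -0.13, -0.06 and 0.38 for Olfr376, Olfr694 and Olfr502. ORs near no change turned sign without single libraries: Olfr910 ran from -0.16 to 0.12, Olfr1437 ran from -0.11 to 0.32, Olfr235 ran from -0.22 to 0.25, Olfr140 ran from -0.47 to 0.20 and Olfr1384 ran from -0.66 to 0.42. The class I median, chosen for this after the data were seen, ran from -0.30 to -0.11. Depth limits ORs with few reads, and only counting and mouse-to-mouse error are covered.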
